A study of Mus musculus with 9 samples.

Results

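The Shank and Homer genes encode the deep scaffold of the excitatory postsynapse, and all 6 of them were followed in the striatum of Shank3B mice. Members were the rows of the deposited table whose Ensembl identifier mapped to Shank1, Shank2, Shank3, Homer1, Homer2 or Homer3, which gave 6 of the 15464 genes in the table. The rule uses gene names and no measured value. The study compared male wild-type (WT), heterozygous (HET) and knock-out (KO) mice of the Shank3B line, which were littermates on a C57BL/6J background aged 10 to 12 weeks. In the line, exons 13–16 of Shank3 are targeted on 1 allele in HET and on both in KO, and WT mice carry neither targeted allele. The sources used here name no Cre driver and no treatment. Each of the 9 libraries came from the striatum of 1 mouse, with 3 mice per genotype. How mice with the same replicate number were related is not given in the sources used here.

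Shank proteins are large scaffolds that carry ankyrin repeats, an SH3 domain, a PDZ domain, a proline-rich region and a SAM domain. Through the PDZ domain they bind SAPAP proteins, which connect to PSD-95 and the glutamate receptors above it, and through the proline-rich region they bind Homer and cortactin. Long Homer proteins pair through a coiled coil and bind Shank, group I metabotropic glutamate receptors and intracellular calcium channels through an EVH1 domain. A short Homer1 product lacks the coiled coil, is made after neuronal activity and competes with the long forms. Shank3 is the Shank paralogue best known for its high level in the striatum, where most neurons are GABAergic medium spiny neurons.

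The question put to the data was the level of Shank3 itself in the targeted animals, and whether its paralogues and the Homer genes differed alongside it. Shank3 (ENSMUSG00000022623) lies on the plus strand of chromosome 15 at chr15:89499623-89560261 of GRCm38, in the coordinates of GENCODE vM21. Its annotated transcript with all 22 exons carries exons 13–16 at chr15:89531343-89532461. These 4 exons are coding, hold the sequence that encodes the PDZ domain, and make up 417 of the 7131 bases of the transcript, or 5.85%. Of all annotated Shank3 exon bases they are 4.54%, with 3128 bases upstream of them and 5644 downstream. The table gives 1 value per gene, which sums the targeted exons with all others, so the Shank3 value does not check the genotype labels and cannot say which exons were transcribed. Of the 9 annotated Shank3 transcripts, 7 touch a targeted exon.

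**Figure D1:**
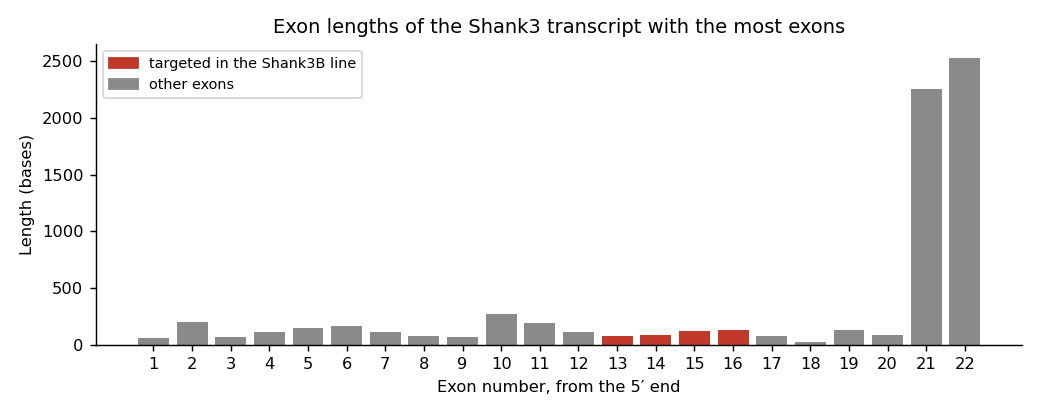
Exon lengths in bases (y axis) along the 22-exon Shank3 transcript, numbered from its 5′ end (x axis), with the 4 targeted exons in red and the other exons in grey. The targeted exons are short beside the last exons of the gene, and hold 417 of 7131 bases.

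Targeted exons 13 to 15 are shown first, each beside the exon that takes the same place in Shank1 and Shank2, because the comparison of paralogues rests on reads from one gene not being counted for another. The sequences are those of GRCm38, read 5′ to 3′ on the plus strand, which is the coding strand of all 3 genes. Capitals in Shank1 and Shank2 mark bases that differ from Shank3 at the same position of the exon. The counterparts are exons 13, 14 and 15 of a Shank1 transcript and exons 14, 15 and 16 of a Shank2 transcript.
Shank3 exon 13, chr15:89531343-89531418: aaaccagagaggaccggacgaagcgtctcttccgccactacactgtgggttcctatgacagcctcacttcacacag
Shank1 counterpart, chr7:44333543-44333618: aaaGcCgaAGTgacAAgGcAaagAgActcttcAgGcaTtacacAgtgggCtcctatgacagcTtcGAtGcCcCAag
Shank2 counterpart, chr7:144259065-144259140: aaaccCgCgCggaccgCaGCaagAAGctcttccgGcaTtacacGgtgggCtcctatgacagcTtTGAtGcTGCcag
Shank3 exon 14, chr15:89531626-89531708: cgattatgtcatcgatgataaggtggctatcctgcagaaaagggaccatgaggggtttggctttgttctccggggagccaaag
Shank1 counterpart, chr7:44342098-44342180: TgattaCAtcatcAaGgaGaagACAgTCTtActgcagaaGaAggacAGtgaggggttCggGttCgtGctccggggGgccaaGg
Shank2 counterpart, chr7:144285055-144285137: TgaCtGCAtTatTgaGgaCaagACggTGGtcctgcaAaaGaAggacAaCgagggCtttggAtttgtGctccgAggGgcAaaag
Shank3 exon 15, chr15:89532095-89532219: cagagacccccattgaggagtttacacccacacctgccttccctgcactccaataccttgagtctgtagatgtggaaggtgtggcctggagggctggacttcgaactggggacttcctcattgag
Shank1 counterpart, chr7:44342420-44342544: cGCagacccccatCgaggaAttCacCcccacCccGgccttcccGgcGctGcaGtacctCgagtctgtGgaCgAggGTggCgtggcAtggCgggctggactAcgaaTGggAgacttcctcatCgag
Shank2 counterpart, chr7:144286642-144286766: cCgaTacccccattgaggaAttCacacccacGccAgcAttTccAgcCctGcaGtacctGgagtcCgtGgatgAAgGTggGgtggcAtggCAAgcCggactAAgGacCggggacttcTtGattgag

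The counterparts were found as the run of 3 exons with the lengths of the Shank3 exons, 76, 83 and 125 bases. Their equal lengths follow from that choice. Over these 284 bases Shank1 was 74.6% and Shank2 72.9% identical to Shank3, with 72 and 77 differing bases. The longest run of equal bases was 12 between Shank3 and Shank1 and 14 between Shank3 and Shank2. Exon 16 of Shank3 had 133 bases where both counterparts had 136, so it was not aligned. Across whole annotated transcripts, Shank3 shared none of its 31-base words with any other member, Shank1 and Homer3 shared none, Shank2 and Homer1 shared 3 each, and Homer2 shared 2. Words of 31 bases are what the quantification tool uses by default to place a read, so the members could be told apart from each other by sequence.

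Overlap with neighbouring genes was larger than overlap among members. Homer3 shared 23.15% of its 31-base words with other genes, nearly all of them with Ddx49, a helicase gene on the opposite strand that is also in the table. Homer2 shared 4.12%, mostly with the antisense gene Gm44570, Shank1 shared 3.67%, mostly with 1700008O03Rik on the opposite strand, and Shank3 shared 2.64%, nearly all with the long noncoding RNA Gm15609 on the opposite strand. The library kit marks strand, but whether the counting used it is not given in the sources used here, so the Homer3 value in particular carries this uncertainty.

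Values below are normalized counts, that is, estimated counts that the authors had divided by a size factor for each library. They summed to between 30830020 and 33790296 per library, and the depth in reads is unknown. HET replicate 3 and KO replicate 3 stood apart from the other 7 libraries on the first principal component (33.6% of the variance, loadings 0.593 and 0.601 against −0.299 to 0.024 for the others), so results are also given without them. The 10 markers of medium spiny neurons chosen for this work, among them Drd1, Drd2 and Ppp1r1b, were all in the table with none at 0 in any library. Their summed normalized counts differed widely within genotypes, at 167507, 190883 and 95749 in WT, 167324, 129316 and 160460 in HET and 140772, 122023 and 92360 in KO. In bulk tissue, fewer cells of a type and less RNA per cell cannot be told apart.

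Shank3, the targeted gene, was the member that differed most in KO, and its total was higher, not lower. It measured 7209, 8812 and 6043 normalized counts in WT, 7575, 7098 and 8050 in HET, and 10237, 10798 and 10578 in KO. Every KO library lay above every WT and HET library, while the HET libraries all lay inside the WT range. The means were 7355 ± 1390 in WT, 7574 ± 476 in HET and 10538 ± 283 in KO (SD, n = 3 each).

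In KO against WT the log2 fold change of Shank3 was 0.54 ± 0.13 (SE; 95% interval 0.25 to 0.82), or 1.45-fold. By limma across 14239 genes its unadjusted p was 0.00195, the 5th smallest. Its Benjamini-Hochberg adjusted p was 0.999, so it did not pass the test over all genes. Only 0.822% of genes had an unadjusted p under 0.05, so the fit gave fewer small p-values than evenly spread ones would. The study corrected its p-values with an empirical null. With limma p-values rescaled to an empirical null here, the adjusted p of Shank3 was 0.0714, which also did not pass. A two-sided exact permutation test of the 3 KO against the 3 WT values gave p = 0.1, the smallest that 3 against 3 can give. Leaving out 1 library at a time gave log2 fold changes from 0.40 to 0.67. Without HET replicate 3 and KO replicate 3 the value was 0.53.

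With the mean level of the medium spiny neuron markers as a covariate, an alternative chosen after seeing the data, the Shank3 difference in KO against WT was 0.63 ± 0.12 (SE), with an unadjusted limma p of 0.000398. WT replicate 3 had both the lowest marker sum and the lowest Shank3 of the WT libraries, and KO replicate 3 had the lowest marker sum of all beside 10578 normalized counts of Shank3. These libraries were picked with their values in view. The markers themselves had a median log2 fold change of −0.31 in KO against WT, so marker level and genotype were not separate. The part of cell composition in the Shank3 difference was not tested.

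In HET, Shank3 was not distinguishable from WT. The log2 fold change was 0.06 (95% interval −0.23 to 0.34, limma adjusted p = 0.999), and the sign turned to −0.075 when WT replicate 3 was left out. The interval spans differences in both directions, and it does not show that 1 targeted allele left the gene total unaltered. KO against HET gave 0.48 ± 0.13 (SE; 95% interval 0.19 to 0.77), with an unadjusted limma p of 0.00403, the 4th smallest of all genes, and an adjusted p of 1.0. This comparison uses the same KO libraries as KO against WT and so is not separate evidence.

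**Figure D2:**
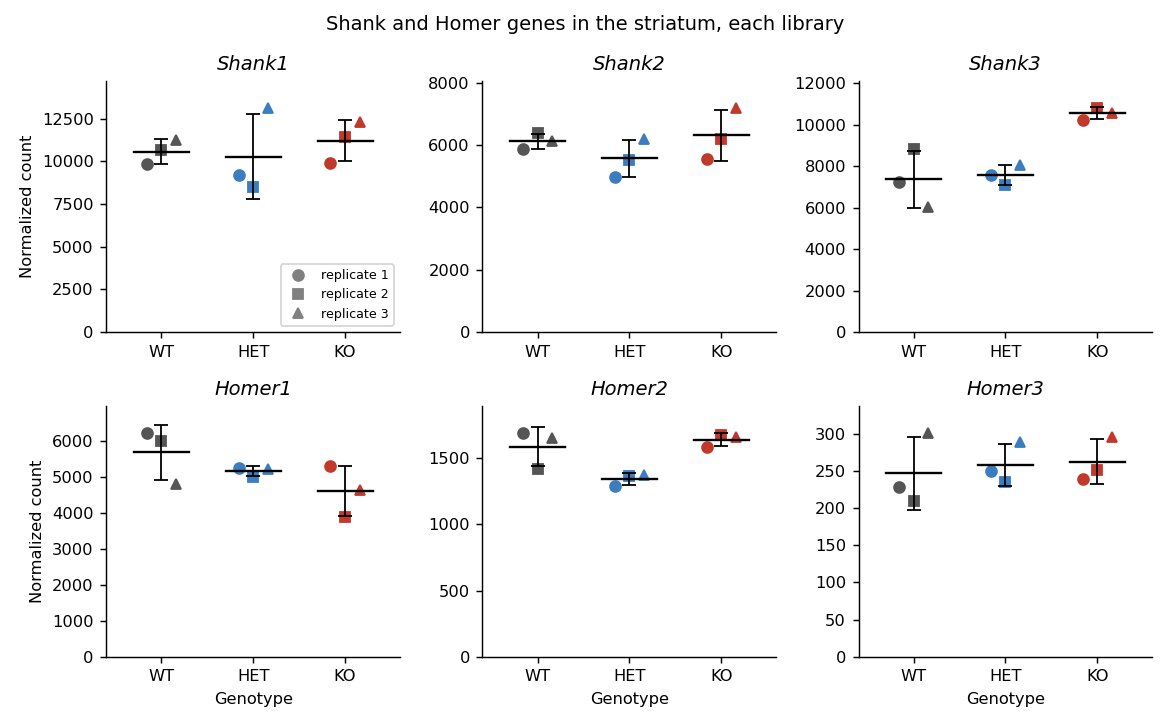
Normalized counts (y axis, from 0) of the 6 genes in each library by genotype (x axis), with 1 point per mouse, the genotype mean as a line and the SD as an error bar. The 3 KO libraries lie above all others for Shank3, and the 3 HET libraries lie below all others for Homer2.

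Shank1 is known for its place in the spines of cortical and hippocampal neurons. It measured 9843, 10647 and 11258 normalized counts in WT, 9181, 8534 and 13138 in HET, and 9918, 11437 and 12308 in KO. The 3 genotypes overlapped, and HET replicate 3 was the highest of all 9 libraries. KO against WT gave a log2 fold change of 0.08 (95% interval −0.27 to 0.43) and HET against WT gave −0.07 (−0.42 to 0.29), both with a limma adjusted p of 0.999. HET values were the least even, with a coefficient of variation of 24.2% against 6.71% in WT and 10.8% in KO. Without HET replicate 3 and KO replicate 3 the HET difference was −0.26, with an unadjusted limma p of 0.0268, and the KO difference was 0.011.

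Shank2, a paralogue also found in cerebellar Purkinje cells, had the tightest WT values of the 3 Shank genes. It measured 5887, 6371 and 6120 normalized counts in WT, 4990, 5535 and 6185 in HET, and 5565, 6185 and 7190 in KO. Neither mutant genotype was separated from WT, and replicate 3 was the highest library in both. The log2 fold change was 0.04 in KO (95% interval −0.22 to 0.29) and −0.14 in HET (−0.40 to 0.12), both with a limma adjusted p of 0.999. The KO value changed sign, to −0.062, without KO replicate 3, and also when the marker level was a covariate (−0.013). Without both replicates 3 the HET value was −0.22, with an unadjusted limma p of 0.0297.

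KO against HET gave 0.15 for Shank1 (95% interval −0.21 to 0.50) and 0.18 for Shank2 (−0.08 to 0.44), both with a limma adjusted p of 1.0. For Shank2 the KO library lay above the HET library of the same number in all 3 replicates, and the value ranged from 0.08 without KO replicate 3 to 0.27 without KO replicate 1.

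Against WT, no shift of the paralogues passed the test, and the intervals give the sizes that these data could not tell from WT. In KO, a Shank1 level between 0.828 and 1.35 times WT and a Shank2 level between 0.858 and 1.23 times WT lay inside the 95% intervals. In the same libraries the interval for Shank3 reached up to 1.77 times WT and stayed above the WT level.

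Homer1 makes both long scaffold forms and the short activity-induced form. Of its 11 coding transcripts in the annotation, 7 reach the last exon of the long form and 4 end before it, and the gene value mixes them. Homer1 measured 6230, 6000 and 4814 normalized counts in WT, 5235, 4989 and 5231 in HET, and 5291, 3897 and 4629 in KO. The lowest libraries were KO, but KO replicate 1 lay above WT replicate 3, so the genotypes overlapped. KO against WT gave a log2 fold change of −0.30 ± 0.13 (SE; 95% interval −0.60 to −0.01), the 92nd smallest unadjusted limma p at 0.0418, with an adjusted p of 0.999 and a two-sided exact permutation p of 0.2.

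The Homer1 difference in KO was larger than the SD of 0.174 between mice of a genotype on the log2 scale, but it depended on single libraries. Leaving out 1 library at a time gave −0.42 to −0.19, and the unadjusted limma p stayed under 0.05 in 3 of 9 such fits, reaching 0.181 without KO replicate 2. With the medium spiny neuron markers as a covariate the log2 fold change was −0.21 ± 0.12 (SE), with an unadjusted limma p of 0.12, and without HET replicate 3 and KO replicate 3 it was −0.31. The HET value was −0.13 (95% interval −0.42 to 0.16), and it ran from −0.25 without WT replicate 3 to −0.061 without WT replicate 1. The 5 thalamic and septal markers were chosen for tissue next to the striatum. They summed to 2595 normalized counts in KO replicate 2 and 2638 in WT replicate 3. These libraries had the lowest Homer1 of their genotypes, and the other 7 had sums of 1131 to 1448. Different genes carried the high sums. Calb2 stood at 1295 in WT replicate 3 and 571 in KO replicate 2, and Zic1 at 443 and 870. Slc17a6 stood at 409 and 424 there, but also at 414 in HET replicate 2 and 416 in KO replicate 3. The part of these markers in the Homer1 difference was not tested.

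Homer2, a coiled-coil member of the family, was lower in HET than in both other genotypes, though not past the test over all genes. It measured 1694, 1420 and 1650 normalized counts in WT, 1291, 1366 and 1376 in HET, and 1586, 1673 and 1663 in KO. The 3 HET libraries lay below all WT and all KO libraries, whereas the KO libraries lay inside the WT range. HET against WT gave a log2 fold change of −0.24 ± 0.09 (SE; 95% interval −0.44 to −0.03), with an unadjusted limma p of 0.0279, an adjusted p of 0.999 and a two-sided exact permutation p of 0.1. KO against HET gave 0.29 ± 0.09 (0.08 to 0.49), with an unadjusted limma p of 0.0107, the 25th smallest, and an adjusted p of 1.0.

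Homer2 thus did not follow the number of targeted alleles, since KO against WT gave only 0.05 (95% interval −0.15 to 0.26). The direction in HET held in every fit that left out 1 library (−0.31 to −0.19), although the unadjusted limma p reached 0.105 without WT replicate 1. Without both replicates 3 the HET value was −0.25, and with the marker covariate it was −0.23 ± 0.09 (SE), with an unadjusted limma p of 0.0304. Homer2 varied less within genotypes than most genes at a similar level, with an SD of 0.088 on the log2 scale at the 16.5th percentile of 2495 such genes.

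Homer3, best known from cerebellar Purkinje cells, was the member with the lowest level per length. It measured 228.9, 209.5 and 301.7 normalized counts in WT, 249.5, 234.6 and 289.0 in HET, and 239.0, 251.3 and 296.4 in KO. Replicate 3 was the highest library in each genotype, and the genotypes overlapped fully. The log2 fold change was 0.10 in KO (95% interval −0.27 to 0.47) and 0.07 in HET (−0.30 to 0.45), and both signs depended on which library was left out. Without HET replicate 3 and KO replicate 3 they were 0.0084 and −0.01.

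Counted over the family, none of the 6 members passed an adjusted limma p of 0.05 in any comparison, where the share of all 14239 genes was 0% in KO against WT, 0% in HET against WT and 0% in KO against HET. The smallest adjusted p of any gene was 0.912, 0.811 and 1.0 in that order. At an unadjusted p under 0.05 there were 2 members in KO against WT (Shank3 and Homer1) where 0.822% of genes passed, 1 in HET against WT (Homer2) where 1.11% passed, and 2 in KO against HET (Shank3 and Homer2) where 1.31% passed. Genotypes did not overlap for 1 member in KO against WT (4.54% of genes), 1 in HET against WT (4.45%) and 2 in KO against HET (4.45%). The median size of the log2 difference over the members was 0.09, 0.104 and 0.175, against 0.079, 0.088 and 0.076 over all genes.

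KO and HET libraries with the same number deviated together from their genotype means (r over genes 0.52, 0.28 and 0.51 for replicates 1, 2 and 3). HET replicate 3 and KO replicate 3 shared their place on the first principal component, and deviations within a genotype sum to 0. Libraries of unlike number were not compared, so these r values cannot show that mice were paired by the replicate numbers. Fitted with these numbers as a block, the KO and HET comparison gave an unadjusted limma p of 0.00458 for Shank3, 0.011 for Homer2 and 0.0656 for Shank2, which was 0.154 without the block, where 2.23% of genes had an unadjusted p under 0.05 and 0 an adjusted one.

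**Figure D3:**
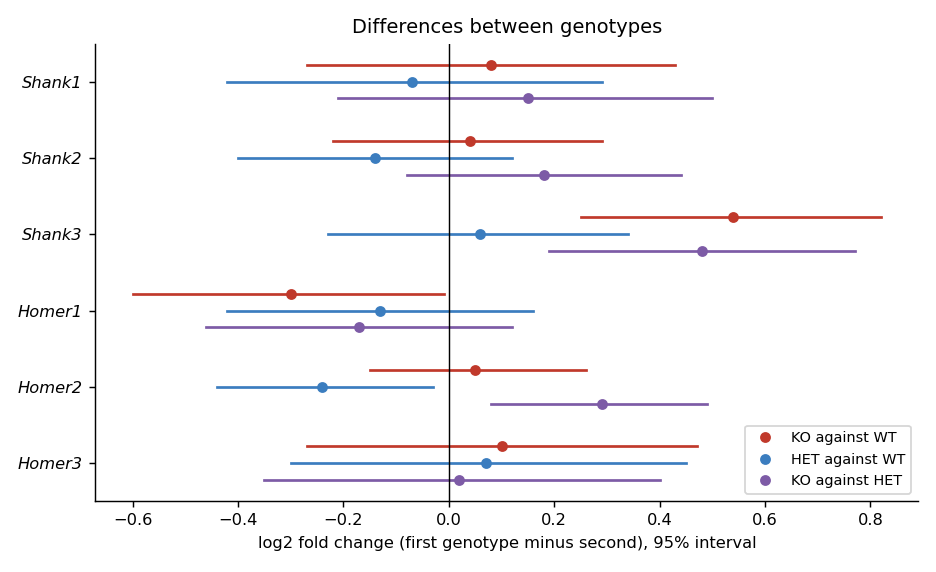
The log2 fold change (x axis) of each gene in the 3 comparisons, with points for the limma estimate and lines for its 95% interval. The intervals that leave out 0 are those of Shank3 and Homer1 in KO against WT, Homer2 in HET against WT, and Shank3 and Homer2 in KO against HET.

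A ratio taken inside one library cancels its size factor, and so asks whether Shank3 shifted relative to the rest of the scaffold. The log2 ratio of Shank3 to Shank1 lay between −0.90 and −0.27 in WT and between −0.22 and 0.05 in KO, with means of −0.54 and −0.09. Every KO library was above every WT library for the ratio to Shank1, Shank2, Homer1 and Homer2, with mean differences of 0.45, 0.50, 0.84 and 0.48. For each of the 4 the two-sided exact permutation p was 0.1, the smallest possible, or 0.25 after adjustment over the 10 ratio tests. All of these ratios reuse the Shank3 values, which by themselves differed by 0.54 without overlap. The ratio tests are therefore not separate evidence from the Shank3 difference. How many of all genes would separate in the same way was not computed.

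The ratio of Shank3 to Homer1 differed most, since Homer1 was lower where Shank3 was higher. It lay between 0.21 and 0.55 in WT, 0.51 and 0.62 in HET, and 0.95 and 1.47 in KO. The ratio to Homer3 differed by 0.44 with overlapping libraries (two-sided exact permutation p = 0.2). WT replicate 3 had much weight in these values, except in the ratio to Homer1. Without it the KO differences were 0.28 for the ratio to Shank1, 0.37 to Shank2, 0.82 to Homer1, 0.32 to Homer2 and 0.15 to Homer3. Over all fits with 1 library left out these were the lowest values, except for Homer1, where the lowest was 0.71. The highest were 0.59, 0.61, 0.97, 0.70 and 0.68 in the same order. In HET the 5 ratios differed from WT by −0.02 to 0.29, with two-sided exact permutation p-values from 0.3 to 1.0.

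**Figure D4:**
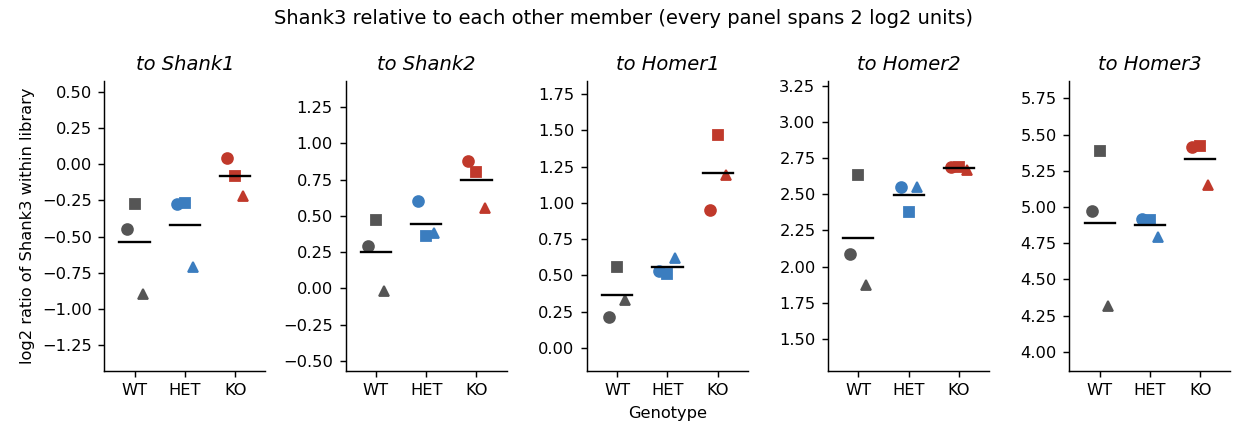
The log2 ratio of Shank3 to each other member within a library (y axes, each spanning 2 log2 units) by genotype (x axis), with circles, squares and triangles for replicates 1, 2 and 3 and lines for means. KO libraries lie above all WT libraries in the panels for Shank1, Shank2, Homer1 and Homer2, and overlap WT in the panel for Homer3.

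Levels can be set side by side between genes only per length, here as normalized counts per kilobase of annotated exons. In WT striatum Shank1 stood at 1007 ± 67.5, Shank3 at 800 ± 151, Shank2 at 569 ± 22.4, Homer1 at 474 ± 63.4, Homer2 at 126 ± 11.7 and Homer3 at 71.7 ± 14.1 (SD, n = 3). The ranges of Shank1 and Shank3 overlapped, and those of the other neighbours in this order did not. With the longest annotated transcript as the length, Homer1 stood at 994, next to Shank3 at 999 and above Shank2 at 682, so the place of Homer1 depends on the length used. Shank1 was then 1077, Homer2 145 and Homer3 94.6.

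In KO the level of Shank3 was 1147 ± 30.8 per kilobase against 1067 ± 115 for Shank1, with overlapping ranges. Shank3 made up 33.5% ± 4.48 of the summed Shank level per kilobase in WT, 35.8% ± 2.98 in HET and 41.1% ± 2.40 in KO (SD, n = 3). Among the Homer genes, Homer1 held 70.4% ± 4.99 in WT, 70.3% ± 1.05 in HET and 64.9% ± 4.12 in KO, and Homer2 held 18.8% ± 2.20, 17.4% ± 0.77 and 22.2% ± 2.64. With the longest transcript as the length, Homer1 held 80.4%, 80.3% and 76.1%, Homer2 11.8%, 10.9% and 14.3%, and Shank3 36.1%, 38.4% and 43.8% of its family in WT, HET and KO.

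Over the 9 libraries, 15 pairs of members were compared. Shank1 and Shank2 varied together most closely, with Pearson's r = 0.76 (exact permutation p = 0.0157, adjusted p = 0.236) and Spearman's rho = 0.83 (exact permutation p = 0.00827, adjusted p = 0.124). Without the 2 libraries farthest from the median of Shank1 r was 0.92, and without HET replicate 3 and KO replicate 3 it was 0.77. Homer1 and Homer3 ran in opposite directions, with r = −0.51 (exact permutation p = 0.163, adjusted p = 0.606), rho = −0.75 (exact permutation p = 0.0255, adjusted p = 0.191) and r = −0.79 without the 2 farthest libraries. Shank3 was not closely tied to any other member, its r lying between −0.38 with Homer1 and 0.39 with Shank2. No pair passed an adjusted p of 0.05, and the libraries share genotypes and size factors.

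Short Homer1 transcripts are made with other activity-induced genes, so the 12 such genes listed for this work, among them Fos, Arc and Egr1, were set beside it. In KO 11 of 12 were above WT and 1 below, with a median log2 fold change of 0.14, and 0 had an unadjusted limma p under 0.05. In HET 4 were above and 8 below, with a median of −0.12, again with 0 under 0.05. Over 9 libraries Homer1 and their summed level had r = −0.50 (exact permutation p = 0.173) and rho = −0.55 (exact permutation p = 0.133), and r = −0.66 without HET replicates 1 and 2, the libraries farthest from the median. In KO replicate 2, where their sum was highest at 49410 normalized counts, Homer1 was lowest at 3897.

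The proteins that bind Shank and Homer were covered by 34 genes, all of which were tested. In KO 14 were above WT and 20 below, with a median log2 fold change of −0.021, and 1 had an unadjusted limma p under 0.05, or 2.94% where all genes gave 0.822%. In HET 14 were above and 20 below, again with a median of −0.021, and 1 had an unadjusted limma p under 0.05, or 2.94% where all genes gave 1.11%. No partner passed an adjusted p of 0.05 in limma, and in KO against HET 0 had an unadjusted p under 0.05, where all genes gave 1.31%.

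Grm5, a group I metabotropic glutamate receptor gene whose product long Homer proteins hold near Shank, measured −0.21 ± 0.22 on the log2 scale in KO against WT and −0.15 ± 0.22 in HET against WT (SE), so neither difference exceeded its error.

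All 4 SAPAP genes, whose products link Shank to PSD-95, had means below WT in both mutant genotypes, and none had an unadjusted limma p under 0.05. Their medians were −0.075 in KO and −0.16 in HET, where those of all genes were 0.005 and −0.003. Dlgap1 in KO, at −0.01 ± 0.11 (SE), was not different from WT. Both comparisons use the same WT libraries, so the second is not separate evidence, and the share of all genes below WT was not counted. Dlgap3, the SAPAP gene best known from the striatum, measured 13014, 18128 and 12672 normalized counts in WT and 11931, 12898 and 12319 in KO, where its log2 fold change was −0.22 ± 0.15. The WT mean rested on replicate 2, and the genotypes overlapped. Dlgap1 gave −0.20 ± 0.11 and Dlgap4 −0.16 ± 0.12 in HET. Of the 4 PSD-95 family genes 2 were above and 2 below WT in KO, within −0.11 and 0.06. Dlg1, which encodes SAP97, gave 0.22 ± 0.17 in HET and owed it to HET replicate 3, at 9007 normalized counts against 5791 and 6127.

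Calcium channels and actin regulators were centred near 0 in KO. The 7 calcium channel genes bound by Homer (inositol trisphosphate and ryanodine receptors and Trpc1) had a median of 0.029, and the 8 actin regulators a median of 0.01. Abi1, a subunit of the WAVE complex, gave −0.13 ± 0.11 in KO, with 3536, 3651 and 3629 normalized counts in WT and 3586, 3342 and 3012 in KO. Frmpd4, a PSD-95 and Homer binding protein, gave −0.11 ± 0.08, with an unadjusted limma p of 0.215. Its KO libraries (2209, 2087 and 2154) lay below its WT libraries (2373, 2250 and 2329). It was the 1 partner of 34 without overlap in KO against WT, where 4.54% of all genes did not overlap.

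**Figure D5:**
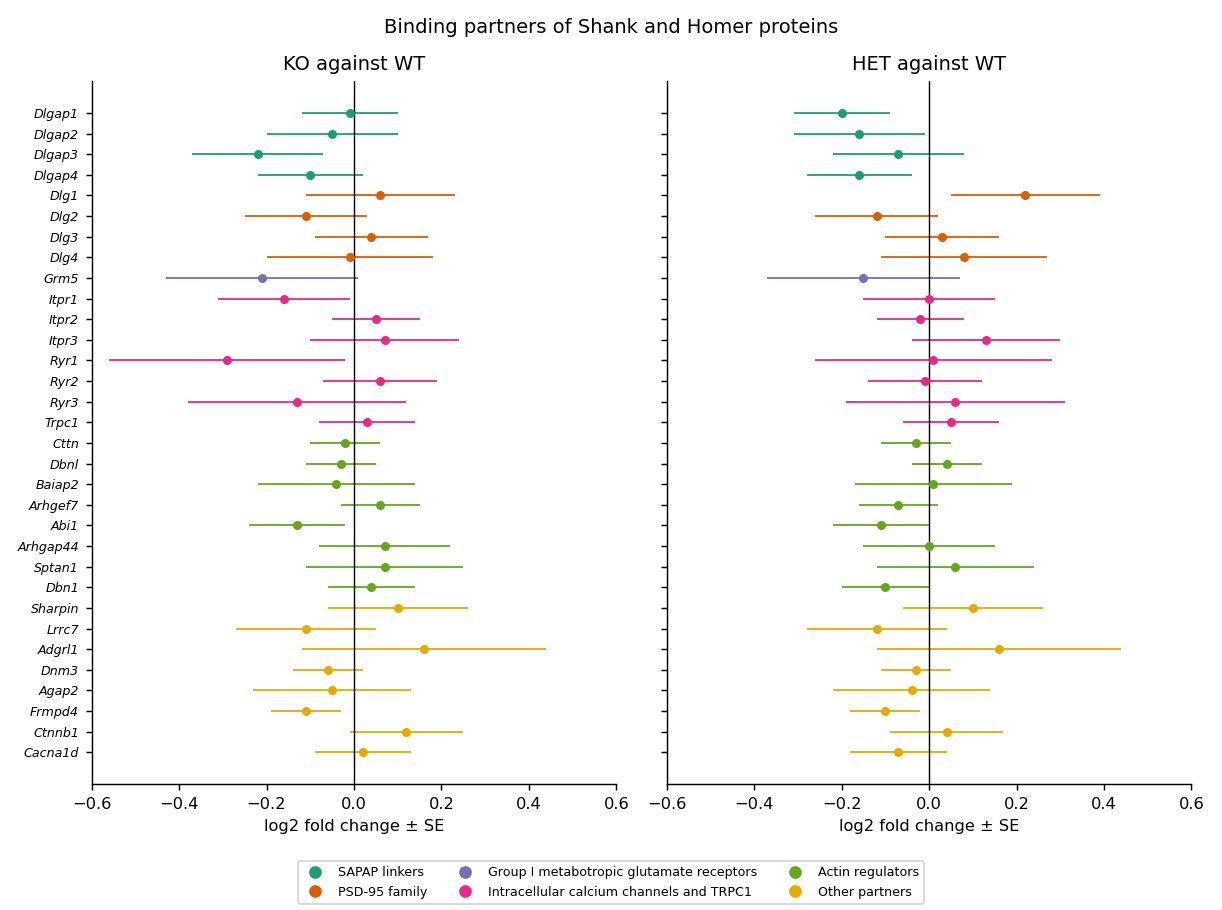
The log2 fold change ± SE (x axes) of 32 binding partners (y axis, coloured by group) in KO against WT (left) and HET against WT (right). All 4 SAPAP genes lie at or left of 0 in both panels, which share the same WT libraries, and Dlgap1 lies at −0.01 in KO.

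The genes whose levels ran most like those of each member over the 9 libraries were found among 11905 genes with a mean of at least 100 normalized counts. For Shank3 they were Atad3a (r = 0.909), Armcx3 (0.889), Cd33 (0.873), Cyp2u1 (0.856) and Abcb4 (0.847), each higher in KO than in WT on average. Atad3a, a mitochondrial membrane ATPase gene, had means of 1235 normalized counts in WT, 1281 in HET and 1395 in KO. No other member and no partner was among these 5 genes. That says little about the family, because the members and the 34 partners are few among 11905 genes.

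Homer2 was tracked by Rasal2 (r = 0.971), a Ras GTPase activating protein gene, and Adcyap1r1 (0.924), the receptor gene for the neuropeptide PACAP. Both were lower in HET than in WT and KO, Rasal2 with means of 3226, 2781 and 3247 in WT, HET and KO and Adcyap1r1 with 5366, 4631 and 5436. Shank1 was tracked by Hcn3 (0.972) and Slc22a23 (0.965), Shank2 by Slc6a17 (0.962) and Rps6ka2 (0.959), Homer1 by Nus1 (0.924) and Camkk2 (0.905), and Homer3 by Kcna6 (0.981) and Pcsk6 (0.939). These were the highest of many correlations over 9 points and are given as a description. The genotype patterns of these genes, and of those named for Shank3, follow largely from that choice and are not separate evidence.

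Markers of several cell types differed between these libraries. In KO against WT the 10 medium spiny neuron markers had a median log2 fold change of −0.31, with 0 of 10 at an unadjusted limma p under 0.05. The 9 cortical glutamatergic markers summed to between 55330 and 71438 normalized counts in WT, 51844 and 66215 in HET, and 57039 and 80624 in KO, highest in KO replicate 3. The 6 oligodendrocyte markers ranged from 154380 to 253632 in WT, 216710 to 245573 in HET and 132901 to 237527 in KO, lowest in KO replicate 3. Of the 5 thalamic and septal markers, 1 had an unadjusted limma p under 0.05 in KO against WT and 1 in KO against HET. The part of cortical and oligodendrocyte RNA in the member values was not tested.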

How the data were processed

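Striatal RNA of 3 WT, 3 HET and 3 KO mice was sequenced as stranded poly(A) libraries with paired-end reads. Per the labels and methods, the authors estimated transcript abundance with Salmon 0.9.1 on GRCm38 with GC bias correction, summed it to genes with tximport in R 3.6.0, and divided the counts by DESeq2 1.19.11 size factors. The deposited values are therefore a normalized count signal and not raw counts. They could not be turned back into whole reads, so no count model was used and counting error is unknown. Transcript lengths can enter the normalization, and so a shift between isoforms can move a gene value. All columns were used.

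Values were analysed as log2(value + 1), which understates changes of low genes. Genes reaching 10 in at least 3 libraries (14239) were fitted with limma 3.58.1 (R 4.3.3, trended prior, all 9 libraries, no covariate) with Benjamini-Hochberg adjustment over all of them, and single values were compared with exact permutation tests (SciPy 1.17.1). The limma fit was tested on simulated data. Groups came from the genotype labels, and replicates are separate mice.

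Symbols came from a table of gene identifiers, which named 15457 of 15464 genes. Lengths and exon sequences were read from GENCODE vM21. The members and gene lists were chosen with earlier results of these data known. Partners were named by the 4 smallest unadjusted p-values in KO against WT and the 4 in HET against WT. Genes most like a member were the 5 (Shank3) or 2 (others) with the highest Pearson r. Any further gene was picked with its values in view. Alternatives were other pseudocounts, filters, scalings and priors, an empirical null, a block on the replicate number, fits to only the genotypes in a comparison, and fits with libraries left out. The marker covariate was added after the data were seen. 2 of the partners so named are not reported here.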

Additional observations from a re-analysis of the deposited data

How the results depend on the processing

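None of the 6 members passed an adjusted p of 0.05 under any of the 22 alternatives. Shank3 in KO against WT kept its direction in all of them, with an unadjusted limma p of at most 0.00808, and its lowest adjusted p was 0.0714, under an empirical null. In HET against WT it ranged from −0.075 to 0.2 when 1 library was left out. With 1 library left out, the members at an unadjusted p under 0.05 numbered 1 to 2 in KO against WT, 0 to 1 in HET against WT and 2 to 3 in KO against HET. The partners numbered 0 to 1, 0 to 2 and 0 to 1 in the same order. In KO against WT there was 1 such member without the trend, with the compared genotypes alone, without both replicates 3 and with the marker covariate. In HET against WT there were 0 with the compared genotypes alone and 3 without both replicates 3. With the marker covariate 0.674% of all genes passed in KO against WT. For the other fits in this paragraph the share of all genes is not given here, so these counts cannot be read against it. Partners numbered 0 in KO and in HET without both replicates 3, 0 in KO with the marker covariate, and 3 in KO against HET under the empirical null. The empirical null rescales the p-values of all genes, so that count cannot be set against the 0 of the main fit.

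Between libraries of the same replicate number, r over genes was 0.28 to 0.52 for HET with KO. It was −0.22 to 0.32 for either with WT, so the ranges overlapped. With the replicate block the partners at an unadjusted limma p under 0.05 were 2 in KO against WT and 1 in KO against HET. Of all genes, 2.18% and 2.23% passed in these fits. Shank3 in KO against WT gave 0.54 and in HET against WT 0.06 with the block, and it changed no other call of a member.

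Small differences turned sign. With 1 library left out, Shank1 in HET ranged from −0.26 to 0.056, Shank2 in KO from −0.062 to 0.12, Homer2 in KO from −0.027 to 0.1, and Homer3 from −0.009 to 0.25 in KO, −0.034 to 0.23 in HET and −0.067 to 0.11 in KO against HET. Without both replicates 3, Shank2 in KO was −0.062, Homer3 in HET −0.01, and the HET difference in the ratio of Shank3 to Homer3 0.023. With the marker covariate, Shank2 in KO was −0.013 and Homer3 −0.035 in KO and −0.13 against HET. The HET difference in the ratio of Shank3 to Shank1 ranged from −0.056 to 0.27, and to Homer3 from −0.3 to 0.23, with 1 library left out. The correlation of Shank2 with Homer3 was −0.05 without both replicates 3, and of Shank3 with Homer3 0.33 without the 2 farthest libraries. With the longest transcript as length, WT levels were 1077 for Shank1, 682 for Shank2, 999 for Shank3, 994 for Homer1, 145 for Homer2 and 94.6 for Homer3. The causes were not tested.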
